A study of Mus musculus with 8 samples.

Results

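Type I interferon-stimulated genes were examined in LPS-treated mouse macrophages that did or did not express a tdTomato (tdT) reporter of the cytokine gene Il19. The set was a list of 44 genes, taken as the rows of the deposited count table that carry a listed symbol and hold 10 or more counts in at least 4 of the 8 count columns. All 44 listed genes were found and met that rule, out of 17823 genes in the table, and all 44 passed the filter on low counts and were among the 12610 genes tested. Bone marrow of C57BL/6 mice was cultured for 7 days in recombinant M-CSF (20 ng) to give macrophages, and both groups were treated with LPS of Escherichia coli O111:B4 at 1 µg/ml. The tdT-positive and tdT-negative groups have 4 libraries each, numbered as replicates 1 to 4 in both. How long LPS was applied, how the reporter allele is built and how positive and negative cells were separated could not be learned from the labels. The comparison asks how macrophages with an active Il19 reporter differ from those without it.

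LPS binds TLR4, which signals through the adaptor TRIF to the kinase TBK1 and the factor IRF3 and so switches on Ifnb1. Secreted interferon-β then acts on its receptor IFNAR on the same and neighbouring cells, where the kinases JAK1 and TYK2 activate STAT factors. Together with IRF9 these bind interferon-stimulated response elements (ISREs) in front of a large group of antiviral genes. Some of these genes, among them Ifit2 and Rsad2, can also be switched on by IRF3 directly, without secreted interferon.

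The libraries held 49850537 to 58516454 counts, and every gene of the set except Ifnb1 had at least 1992 counts in each library. Il19 itself was at 145 to 234 CPM (counts relative to the library's size, which was scaled by the trimmed mean of M values, TMM) in the tdT-positive and 9.17 to 17.0 CPM in the tdT-negative libraries, in the direction of the labels. The macrophage markers Csf1r, Adgre1 and Cd68 were abundant in all libraries, and the 8 macrophage markers summed to 14233 to 18471 CPM in the positive and 12007 to 21526 CPM in the negative group. tdT-positive replicate 3 stood apart by 141822 CPM of the ribosomal RNA gene Rn45s, against 3132 to 7467 CPM in the other 7 libraries. tdT-negative replicate 4 stood apart by markers of other cells, with the osteoclast gene Ctsk at 324 CPM against 3.74 to 19.2 CPM in the other negative libraries and the collagen gene Col1a1 at 857 CPM against 79.1 to 186 CPM, and it had the highest TMM factor. Libraries with the same number varied together across all genes, so fits with and without the number as a block are given. Fold changes set tdT-positive over tdT-negative libraries on the log2 scale. Calls use the quasi-likelihood test of edgeR with p-values adjusted over all genes tested (Benjamini-Hochberg, threshold 0.05).

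The set was abundant and at nearly the same level in both groups. Per kilobase of gene length its median was 116 CPM per kb, against 6.58 CPM per kb over all genes tested. No gene of the set was called without the number in the model, where 0.0238% of all genes were called, the smallest adjusted p was 0.182 (edgeR), and 1 gene, Oas2, had an unadjusted p under 0.05; the DESeq2 Wald test and limma voom also called 0. With the number as a block, 3 of 44 genes rose (6.82%), Oas2, Oasl2 and Adar, and none fell, while 8.03% of all genes tested rose and 7.81% fell. The share that rose was no larger than this background, nor than that among the 3443 genes with a mean of at least 50 CPM, where 12.7% rose and 4.91% fell. In that fit 5 genes of the set had an unadjusted p under 0.05 in the direction of higher levels and 0 in the other, where 16.7% and 16% of all genes tested did. The median log2 fold change of the set was 0.0022 in the blocked fit and 0.0013 without the block, beside medians of 0.0051 and -0.0002 over all genes. In bulk RNA, fewer cells that express a gene and less RNA per cell cannot be told apart.

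In the blocked fit, the size of the differences was bounded for most genes. The 95% interval of the difference, from the blocked fit, lay within a 1.5-fold change in either direction for 42 of 44 genes (95.5%), against 70.6% of all genes tested and 93.2% of those with at least 50 CPM. The exceptions were Oas2, whose interval ran from 0.34 to 0.75, and Ifnb1, whose interval ran from -0.18 to 1.12. Without the block the bound does not hold for all the others, where 1.5-fold is 0.585 on the log2 scale. There the intervals of Ifit2 and Rsad2 ran from -1.23 to 1.27 and from -1.16 to 1.24. That of Dhx58 still lay within the bound (-0.27 to 0.22). For all 44 genes the ranges of the 2 groups overlapped, while 11.4% of all genes tested had groups that did not overlap. Within the numbers, 9 genes were higher in the tdT-positive library in all 4 numbers (Adar, Ifnb1, Oas2, Oas3, Oasl1, Oasl2, Parp14, Slfn8 and Znfx1). In all 4 numbers 3 were lower (Herc6, Ifi204 and Tor3a), and 32 went both ways. The same shares over all genes tested were not counted, so these counts are not read as a lean of the set.

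**Figure D1:**
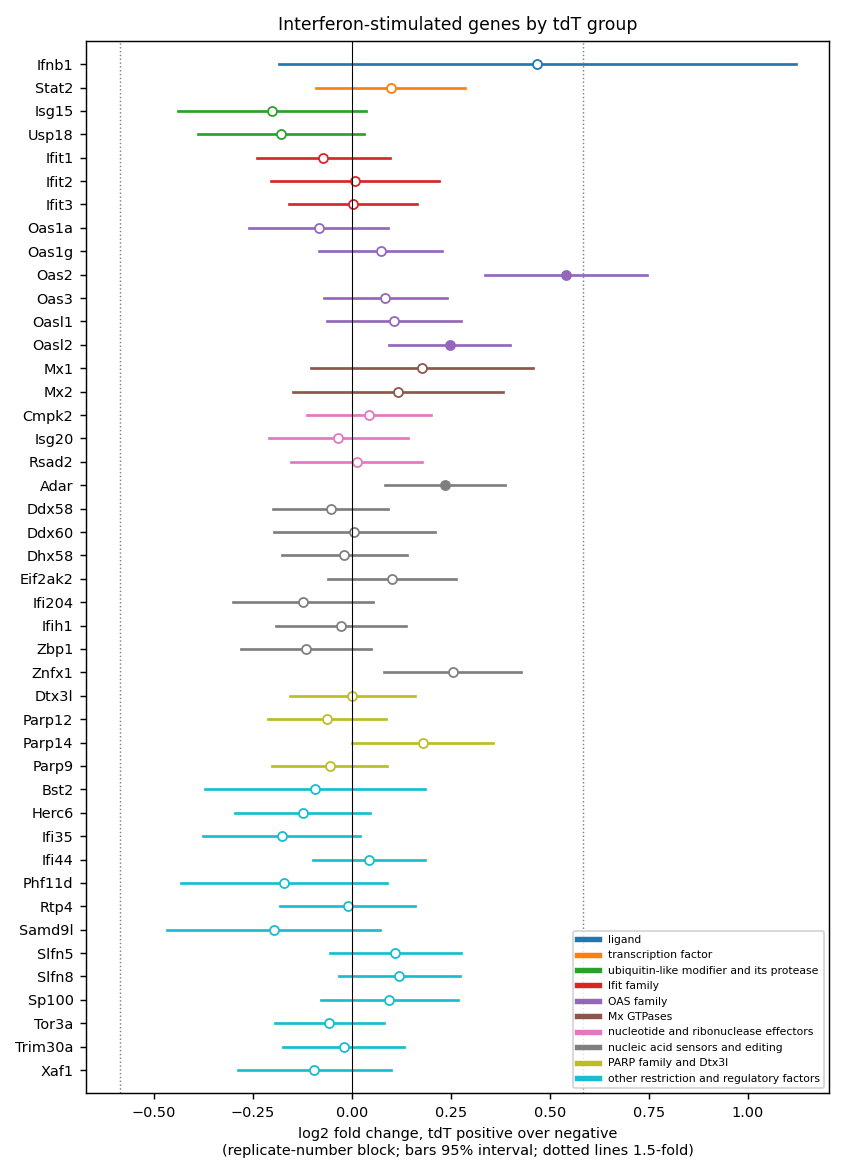
log2 fold change (tdT positive over negative, horizontal axis) of each of the 44 genes, from the blocked edgeR fit, coloured by role. Points are estimates and bars 95% intervals, filled points passed an adjusted p under 0.05, and dotted lines mark a 1.5-fold change. Most intervals lie across 0 and between the dotted lines; the 3 filled points are Oas2, Oasl2 and Adar.

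The promoters were searched for a short sequence, the core of the ISRE, which part of the set holds. In RefSeq's promoter table for GRCm38.p6 (250 bases before to 50 after a gene's start; the submitters' processing notes name the same build as mm10), 33 of the 44 genes were found. Of these, 16 (48.5%) hold the ISRE core (GAAA, NN and GAAA with no gap, where N is any base) on either strand, against 3.99% of all 27025 genes in that table and 4.06% of the 9923 tested genes in it. A gene counted once whatever its number of matches, overlapping ones included. The windows that follow reach 15 bases to either side of one match per gene. All lie upstream of the start given in the promoter table, which can differ from the end of the gene's full span. The Ifit3 window, for example, lies inside that gene's span (chr19:34583119-34588982). The windows are read 5′ to 3′ on the gene's strand, with the core (or its reverse complement, TTTC, NN and TTTC) in capitals. They are shown for genes with different roles that are described next.
Isg15 (chr4:156200866-156200905, minus strand): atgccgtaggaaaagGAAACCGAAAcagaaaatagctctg
Ifit1 (chr19:34640789-34640828, plus strand): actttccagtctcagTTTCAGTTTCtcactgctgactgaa
Ifit3 (chr19:34583392-34583431, plus strand): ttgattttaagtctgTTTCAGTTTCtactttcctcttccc
Rsad2 (chr12:26456548-26456587, minus strand): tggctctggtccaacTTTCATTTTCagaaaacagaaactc
Oas3 (chr5:120777710-120777749, minus strand): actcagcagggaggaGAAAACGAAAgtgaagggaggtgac
Stat2 (chr10:128270261-128270300, plus strand): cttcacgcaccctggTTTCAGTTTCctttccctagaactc
Bst2 (chr8:71537578-71537617, minus strand): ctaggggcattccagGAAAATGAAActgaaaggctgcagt
Counted from the promoter table's start, the first base of the match lies 72 bases before it in Isg15, 85 in Ifit1 and 122 in Ifit3. The distance is 120 in Rsad2, 75 in Oas3, 222 in Stat2 and 130 in Bst2. A match describes these letters only and says nothing of a factor's binding, and a window without a match can hold the element in another form or elsewhere.

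The ligand gene was scarcely expressed when the RNA was taken. Ifnb1 (chr4:88522025-88522794), which encodes interferon-β, had 18, 35, 13 and 18 counts in tdT-positive replicates 1 to 4 and 15, 18, 14 and 15 counts in the tdT-negative ones, or 0.386 ± 0.146 and 0.272 ± 0.0239 CPM (SD, n = 4 each). Its positive libraries were above the negative ones of the same number throughout, mostly by little, and replicate 2 made the widest gap. The log2 fold change was 0.47 (SE 0.28, adjusted p = 0.285 in the blocked edgeR fit), so a difference was not detectable at these counts. Of the 11 other interferon ligand genes searched, 4 were in the table. Ifna4 and Ifna5 had 1 count each in all, and Ifnk had 7. Ifng, the type II interferon gene, had 0 counts in the positive libraries and 4, 4, 8 and 2 in the negative ones. With 3 counts summed over the positive libraries taken as the floor, the level was 5.65-fold lower in the positive group. The few negative counts were taken as exact, so this value is not a firm bound, and Ifng did not pass the filter and was not tested. Of the T and NK cell genes in the table, Nkg7 had 0 counts in the positive and 5 in the negative libraries, Il2rb 6 and 22, and Cd3e 0 and 1. Others went the other way or were level, with Klrb1c at 10 and 6 counts, Ncr1 at 2 and 2, and Cd4 at 163 and 109. Whether such cells gave the Ifng counts was not tested.

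Stat2 and both receptor chains were expressed in all libraries, and none of the 3 passed the test. Stat2 (chr10:128270498-128292853), the interferon-specific STAT, was at 699, 530, 364 and 445 CPM in tdT-positive replicates 1 to 4 and at 714, 496, 365 and 353 CPM in the negative ones. The groups overlap almost fully, with replicate 1 highest in both, and the log2 fold change was 0.10 (95% interval -0.09 to 0.29). The receptor chains Ifnar1 and Ifnar2 had log2 fold changes of 0.15 (adjusted p = 0.142, blocked edgeR fit) and 0.10 (adjusted p = 0.355, the same fit). Of the 19 genes on the route from TLR4 and the nucleic acid sensors to Ifnb1, 1 rose (5.26%) and none fell in the blocked fit. This share was no larger than the background, where 8.03% of all genes tested rose and 7.81% fell. The gene that rose was Ikbke, a kinase gene related to Tbk1, at 0.35 (SE 0.09, adjusted p = 0.0480, blocked edgeR fit). It did not pass without number 1, 2 or 3 (adjusted p = 0.140, 0.134 and 0.0612, the same fit). With library totals as the scaling it did not pass either (adjusted p = 0.114, the same fit). Leaving out number 1, 2 or 3 gave no call on this route. Leaving out number 4 gave 2 higher (10.5%) and 1 lower (5.26%), beside 1231 higher and 1304 lower of all 12537 genes tested. The median log2 fold change on the route was 0.10.

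Isg15 and Usp18 form a pair, since Isg15 encodes a ubiquitin-like modifier and Usp18 the protease that removes it and also dampens signalling at IFNAR. Isg15 (chr4:156199424-156200818), the second most abundant gene of the set per length (998 CPM per kb), was at 951, 624, 563 and 685 CPM in tdT-positive replicates 1 to 4 and at 981, 780, 787 and 664 CPM in the negative ones. Usp18 was at 737, 499, 421 and 373 CPM in the positive and 797, 599, 556 and 357 CPM in the negative libraries. Both were lower in the positive library in numbers 1 to 3 and slightly higher in number 4, and neither passed (log2 fold changes -0.20 and -0.18, adjusted p = 0.212 and 0.210, blocked edgeR fit). Herc6, which encodes the ligase that attaches Isg15 in mouse cells, was lower in all 4 numbers by little (-0.12, adjusted p = 0.279, blocked edgeR fit). Ube2l6, from the list of other interferon-induced genes, encodes the conjugating enzyme of the same pathway and fell by 0.32 on the log2 scale (SE 0.06, adjusted p = 0.0186, blocked edgeR fit). Its levels were 238, 178, 209 and 155 CPM in the positive and 281, 238, 268 and 186 CPM in the negative libraries. It missed the threshold without number 1, 2 or 3 (adjusted p = 0.0530, 0.0935 and 0.0607), and without the block its adjusted p was 0.406. Uba7, from the same list, encodes the activating enzyme of this pathway and did not fall (0.04, adjusted p = 0.722, blocked edgeR fit). Its level was higher in 2 numbers and lower in 2, so the genes of the pathway did not all go one way.

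The OAS family held 2 of the 3 genes that rose. OAS enzymes sense double-stranded RNA and make 2′-5′-linked oligoadenylates that activate RNase L, whereas the OAS-like proteins, such as that of Oasl1, do not all share that activity. Oas2 (chr5:120730333-120749886) was at 402, 328, 223 and 317 CPM in tdT-positive replicates 1 to 4 and at 264, 205, 189 and 203 CPM in the negative ones. Only positive replicate 3 fell below the highest negative library, and the level was higher in 4 of 4 numbers, by 0.60, 0.68, 0.24 and 0.65 on the log2 scale. The means were 317 ± 73.5 and 215 ± 33.5 CPM (SD, n = 4 each), and the blocked edgeR fit gave a log2 fold change of 0.54 with SE 0.09 and adjusted p = 0.0122. Permuting the group labels of the libraries without regard to number (exact test, two-sided, smallest possible p = 0.0286) gave p = 0.0571. It did not pass with number 2 left out (0.49, adjusted p = 0.0659), or without the block (adjusted p = 0.182).

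Oasl2 (chr5:114896926-114912245) was at 883, 761, 808 and 714 CPM in the positive and 739, 656, 705 and 571 CPM in the negative libraries. The highest negative library lay above the lowest positive one, and the level was higher in 4 of 4 numbers, by 0.20 to 0.32. The blocked edgeR fit put the difference at 0.25 (SE 0.065, adjusted p = 0.0434), and without the block the adjusted p was 0.377. That call was lost without number 1, 2 or 3 (adjusted p = 0.141, 0.151 and 0.0749) and when libraries were scaled by their totals (0.17, adjusted p = 0.134). The other 4 family members did not pass. Oas3 (chr5:120753098-120777684), next to Oas2 on chromosome 5, was at 713 ± 115 and 676 ± 138 CPM (SD, n = 4 each) with a log2 fold change of 0.08 and a 95% interval from -0.07 to 0.24, which does not reach that of Oas2, though the difference between the 2 genes was not itself tested. Oas1a and Oas1g, in the same cluster, had values of -0.08 and 0.07. They share 57.6% and 54.7% of the 50-base stretches of their longest transcripts with other genes, so reads may be split between them. Oasl1, beside Oasl2, was at 1019, 790, 466 and 962 CPM in the positive and 973, 774, 447 and 800 CPM in the negative libraries, higher by 0.03 to 0.07 on the log2 scale in numbers 1 to 3 and by 0.27 in number 4 (0.11 in the blocked fit, 95% interval -0.06 to 0.27).

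**Figure D2:**
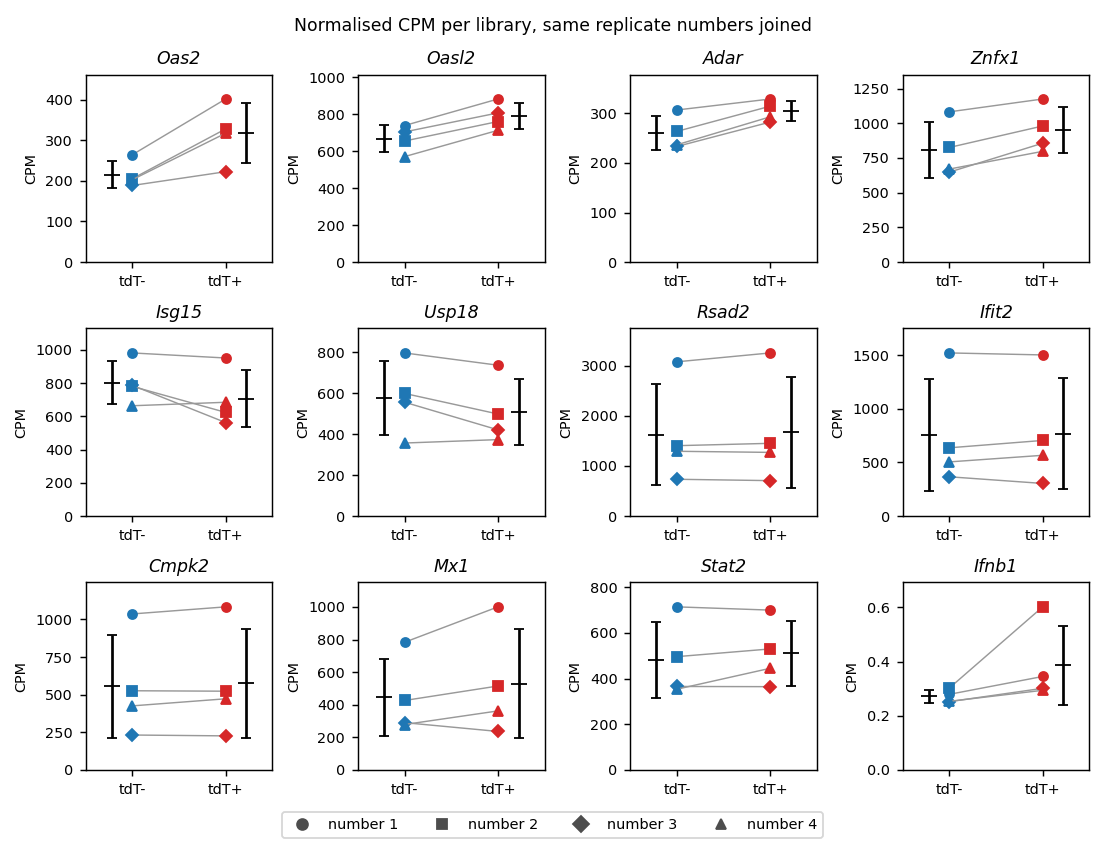
Normalised CPM (vertical axes, from 0) of 12 genes in each library of the tdT-negative (blue) and tdT-positive (red) groups; marker shape gives the replicate number, grey lines join libraries of the same number, and black bars are mean ± SD (n = 4). The lines of Oas2, Oasl2 and Adar rise in all 4 numbers, whereas those of Rsad2, Ifit2 and Cmpk2 are nearly level and spread widely between numbers.

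The genes of nucleic acid sensing and editing differed little. Adar (chr3:89714469-89753455), which encodes the enzyme that edits adenosine to inosine in double-stranded RNA, was at 329, 314, 282 and 293 CPM in tdT-positive replicates 1 to 4 and at 307, 264, 233 and 237 CPM in the negative ones. It was higher in 4 of 4 numbers, and the blocked edgeR fit put the difference at 0.24 (SE 0.06, adjusted p = 0.0489), with an adjusted p of 0.374 without the block. The call was lost without any single number (adjusted p = 0.0764, 0.173, 0.106 and 0.0520 for numbers 1 to 4) and with library totals (0.16, adjusted p = 0.126). Exons of Chrnb2 on the other strand cover 16.8% of its exonic bases, and the strand setting of the counting is not known. Znfx1, a helicase-like antiviral sensor gene, was at 952 ± 167 and 806 ± 200 CPM (SD, n = 4 each), higher in 4 of 4 numbers, and did not pass (0.26, adjusted p = 0.0580, blocked edgeR fit). Without number 4 it did (0.27, adjusted p = 0.0473, the same fit).

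None of the RIG-I-like receptor genes passed. Ddx58, which encodes RIG-I, was at 648, 533, 440 and 395 CPM in the positive and 681, 530, 457 and 421 CPM in the negative libraries. Ifih1, which encodes MDA5, was at 451, 369, 262 and 306 CPM and at 481, 351, 294 and 290 CPM. Dhx58, whose product LGP2 modulates both, was at 286, 263, 242 and 249 CPM and at 289, 282, 260 and 226 CPM. In each of these 3 genes the groups overlapped, the differences within a number were in both directions, and the log2 fold changes were -0.05, -0.03 and -0.02, with intervals no wider than -0.20 to 0.14. Eif2ak2, which encodes the kinase PKR, was at 309, 283, 220 and 227 CPM in the positive and 304, 239, 223 and 203 CPM in the negative libraries (0.10, 95% interval -0.06 to 0.26). Zbp1, a sensor of Z-form nucleic acid, was at 492, 385, 448 and 346 CPM and at 509, 433, 533 and 344 CPM (-0.12, 95% interval -0.28 to 0.05). Neither passed. Ifi204, a DNA sensor gene of the p200 family, was lower in all 4 numbers by little (-0.12, adjusted p = 0.302, blocked edgeR fit), and 30.2% of its transcript's stretches recur in other genes, most in Ifi211.

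The Ifit genes encode proteins that bind foreign RNA and block its translation. Ifit1 was at 1446, 916, 684 and 799 CPM in tdT-positive replicates 1 to 4 and at 1484, 942, 794 and 797 CPM in the negative ones. Ifit2 was at 1501, 704, 304 and 566 CPM and at 1520, 636, 366 and 504 CPM. Ifit3 was at 860, 527, 414 and 381 CPM and at 827, 511, 459 and 365 CPM, and 51.2% of its transcript's stretches recur in other genes, most in Ifit3b. In all 3, libraries of the same number lay closer together than libraries of number 1 and the other numbers. Their log2 fold changes were -0.07, 0.01 and 0.00, with 95% intervals between -0.24 and 0.22.

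Rsad2, which encodes viperin, a maker of a chain-terminating nucleotide, and Cmpk2, which encodes a mitochondrial nucleotide kinase, lie side by side on chromosome 12 (chr12:26442743-26456452 and chr12:26469117-26479837). Rsad2 was at 3256, 1451, 707 and 1270 CPM in the positive and 3079, 1404, 734 and 1292 CPM in the negative libraries. Cmpk2 was at 1084, 523, 226 and 473 CPM and at 1037, 526, 232 and 426 CPM. Libraries of the same number differed by at most 0.15 on the log2 scale, and the fold changes were 0.01 (95% interval -0.15 to 0.18) and 0.04 (95% interval -0.11 to 0.20). Mx1, an antiviral dynamin-like GTPase gene, was at 1001, 515, 236 and 362 CPM in the positive and 783, 426, 290 and 279 CPM in the negative libraries, higher in 3 of 4 numbers (0.18, adjusted p = 0.339, blocked edgeR fit). Mx2 was also higher in 3 of 4 numbers, with a value of 0.12, and did not pass.

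The remaining genes gave no call in the blocked fit. Among the PARP genes and Dtx3l, a ligase gene that partners Parp9, the values ran from -0.06 to 0.18. The highest was that of Parp14, which was higher in 4 of 4 numbers and had an unadjusted p of 0.0491 (adjusted p = 0.151, blocked edgeR fit). Parp9 and Dtx3l overlap in their exons on opposite strands of chromosome 16, and their values were -0.06 and 0.00. The 13 other restriction and regulatory genes ranged from -0.20 (Samd9l) to 0.12 (Slfn8), with a median of -0.06. Bst2, which encodes tetherin, a protein that holds budding virus at the membrane, was the most abundant of the set per length (1136 CPM per kb), at 924, 746, 848 and 831 CPM in the positive and 892, 893, 1137 and 692 CPM in the negative libraries. Ddx60 was the lowest per length after Ifnb1 (26.5 CPM per kb, against 0.427 for Ifnb1), at 225, 172, 122 and 122 CPM and at 216, 145, 146 and 123 CPM. Both genes overlapped between groups and differed in both directions. Ifi35 was lower in 3 of 4 numbers (-0.18, adjusted p = 0.194, blocked edgeR fit) and passed as lower only without number 4 (-0.25, adjusted p = 0.0415, the same fit).

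More genes of the set were called between the replicate numbers than between the tdT groups. A test of the 4 numbers within the blocked fit, added after the data had been seen, called 37 of 44 genes (84.1%), against 27.7% of all genes tested and 38.0% of those with at least 50 CPM. The mean of the pair of libraries with number 1 was the highest for 40 of 44 genes (90.9%), against 22.8% of all genes and 39.0% of the abundant ones. Positive replicate 1 was the highest positive library for 43 genes, and negative replicate 1 the highest negative one for 39. The lowest pair was number 3 for 16 genes and number 4 for 28. The median deviation of the set, without Ifnb1, from its mean over the 8 libraries was 0.37, 0.06, -0.20 and -0.20 on the log2 scale in tdT-positive replicates 1 to 4 and 0.40, 0.01, -0.15 and -0.32 in the negative ones. The order of the libraries was thus nearly the same in both groups, and replicate 1 stood at the top. When both libraries of number 1 were left out, only 6 genes were called, Cmpk2, Ifit2, Oas1g, Oasl1, Rsad2 and Tor3a, with 11.2% of all genes. No label says what a replicate number stands for, and what differed between the numbers was not tested.

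The size of the range between numbers sorted the genes. It was 4.62-fold for Cmpk2, 4.53-fold for Ifit2, 4.40-fold for Rsad2 and 3.38-fold for Mx1, and exceeded 2-fold for 9 of 44 genes (20.5%), near the background of 18.1% of all genes but above the 6.48% of genes with at least 50 CPM. At the other end stood Dhx58 (1.21-fold), Adar (1.24-fold), Oasl2 (1.27-fold), Bst2 (1.29-fold) and Xaf1 (1.30-fold), none of which was called between numbers. The median was 1.61-fold for the set and 1.36-fold for all genes. Adar and Oasl2 were thus called between the tdT groups in the blocked fit and not between the numbers. The genes with the widest ranges had tdT differences near 0: Cmpk2, Ifit2 and Rsad2 had values of 0.04, 0.01 and 0.01. The median range was 1.64-fold among the 16 genes with a match to the ISRE core and 1.59-fold among the 17 without one.

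**Figure D3:**
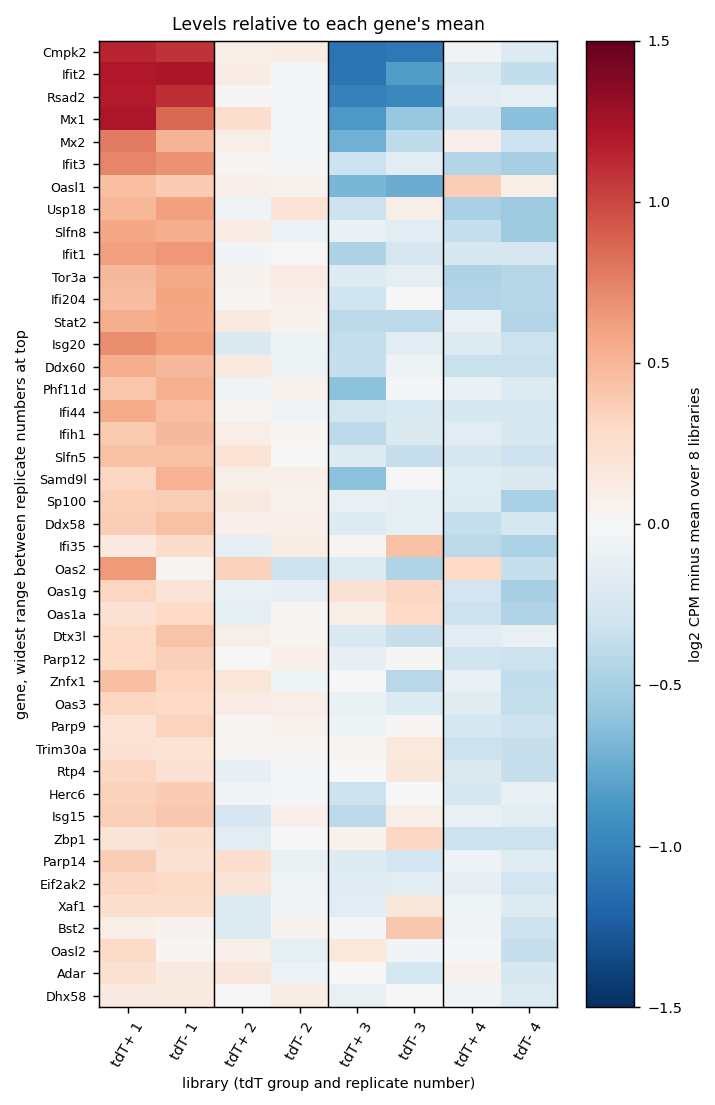
log2 CPM minus the gene's mean over 8 libraries (colour, red above and blue below) for 43 genes of the set, Ifnb1 left out, in rows ordered by their range between replicate numbers; columns are libraries, with the positive and negative library of each number side by side. The columns of number 1 are red and those of numbers 3 and 4 mostly blue in both tdT groups.

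**Figure D4:**
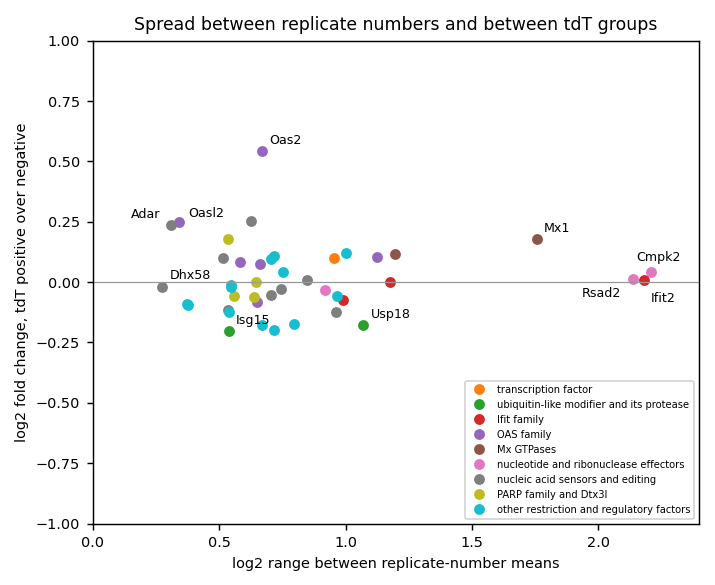
Each point is a gene of the set, Ifnb1 left out: the log2 range between the means of the 4 replicate numbers (horizontal axis) against the log2 fold change between tdT groups from the blocked fit (vertical axis), coloured by role. The grey line marks no tdT difference; Oas2 is highest at 0.54, and Cmpk2, Ifit2 and Rsad2 lie at the right near 0. A range over 4 means and a single difference are not measures of the same kind.

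Within numbers 3 and 4 the median differences of the set had opposite signs. The median log2 difference between the positive and negative library was 0.00 in number 1, 0.03 in number 2, -0.11 in number 3 and 0.12 in number 4, beside -0.02, 0.00, -0.01 and 0.06 over all genes. In number 3, 32 of 44 genes were lower in the positive library, and in number 4, 37 of 44 were higher. The same shares over all genes tested were not counted, and the median of all genes in number 4 was itself above 0. These counts are therefore not read as a lean of the set. The positive library of number 3 is the one with 141822 CPM of Rn45s, and the negative library of number 4 is the one with the highest osteoclast and stromal markers. The part of either library in these medians was not tested. Removing the counts of Rn45s and Lars2 before scaling left the same 3 genes called. With number 3 left out, the blocked fit called Oas2 alone, and the median of the set was 0.03. With number 4 left out it called Oas2, Oasl2 and Znfx1 as higher and Ifi35 as lower, and the median was -0.01.

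A wider list of 73 interferon-induced genes outside the set was examined in the same way. Of 70 tested, 5 rose (7.14%) and 6 fell (8.57%) in the blocked fit. This was about the background of 8.03% and 7.81% of all genes, so the counts of that fit say nothing particular of the list. None was called without the block, and the median log2 fold change was -0.02. Leaving out number 1, 2, 3 or 4 gave 0, 0, 1 and 5 higher and 3, 2, 1 and 14 lower genes. Over all genes these fits gave 419, 94, 229 and 1231 higher and 604, 253, 126 and 1304 lower. The 14 lower genes without number 4 were 20.3% of the 69 tested there, beside 1304 of all 12537 genes. Why more of the list fell in that fit was not tested. Those that rose were Cd274, Helz2, Pml, Ifitm6 and Slfn1, all named after their values were seen. Cd274, which encodes the checkpoint ligand PD-L1, was at 1301 CPM in the positive and 1053 CPM in the negative group (0.31, adjusted p = 0.0290, blocked edgeR fit). Those with the smallest p fell: Cxcl11, Ifi202b, Ube2l6 and Ifitm1, and the others that fell were Lap3 and Ifi205. Cxcl11, a chemokine gene, was at 32.9, 13.1, 13.7 and 9.51 CPM in the positive and 44.7, 19.9, 22.6 and 13.3 CPM in the negative libraries, lower in 4 of 4 numbers (-0.56, SE 0.07, adjusted p = 0.00933, edgeR with block). It also passed with any single number left out (adjusted p between 0.00235 and 0.0491), but not without the block (adjusted p = 0.634, edgeR). Cxcl10 and Cxcl9, ligands of the same receptor, had lower values too but did not pass (-0.21 and -0.30, adjusted p = 0.158 and 0.0603, blocked edgeR fit). Ifi202b was at 6.81 CPM in tdT-negative replicate 4 and at or under 0.386 CPM in the other 7 libraries, and Ifitm1, which encodes a membrane restriction factor, fell by 0.49 on the log2 scale. Ifitm1 did not pass without number 2 or 3 (adjusted p = 0.126 and 0.101), Ifi202b not without number 3 (adjusted p = 0.0512) and was not tested without number 4. The 5 genes that rose did not pass without number 1, 2 or 3 (adjusted p from 0.0581 to 0.153), and 4 of them, all but Cd274, not with library totals (adjusted p from 0.0721 to 0.133). Between the numbers, 61 of the 70 genes were called, against 27.7% of all genes tested and 38.0% of those with at least 50 CPM. Number 1 was the highest for 58 of the 70, against 22.8% of all genes and 39.0% of the abundant ones.

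Markers of other cells moved with the tdT groups. In the blocked fit 8.03% of all genes tested rose and 7.81% fell, the background for the counts that follow. With number 1, 2, 3 or 4 left out, 419, 94, 229 and 1231 of all genes rose and 604, 253, 126 and 1304 fell. Of 14 stromal markers tested out of 15, 13 fell in the blocked fit (92.9%), and 12, 6, 1 and 13 fell with number 1, 2, 3 or 4 left out. The sum of the stromal list was 91.4 to 239 CPM in the positive and 398 to 3522 CPM in the negative libraries. Of 8 neutrophil markers tested out of 12, 3 rose (S100a8, Csf3r and Mmp8) and 4 fell (S100a9, Ngp, Ltf and Prtn3), with sums of 522 to 789 and 176 to 864 CPM, and Prtn3 at 0 in the positive libraries. With a number left out, 0 to 3 rose and 0 to 6 fell, the fewest without number 2. Of 8 monocyte markers Ly6c2, Chil3, Plac8 and S100a4 fell (2 of the list without number 3), and of 8 osteoclast markers tested Ctsk, Atp6v0d2, Dcstamp and Itgb3 fell (none of the list without number 2 or 3). Of 4 conventional dendritic cell markers tested out of 9, Fscn1, Ccr7 and Cd24a fell, with sums of at most 11.9 CPM in the positive and at least 27.6 CPM in the negative libraries, and 1 fell without number 1, 2 or 3. Of 9 markers of plasmacytoid dendritic cells, a cell type known for its interferon output, 4 were tested. The 1 that rose was Tcf4, a gene that other cells express too, at 98.5, 81.9, 72.7 and 68.9 CPM in the positive and 86.7, 66.0, 57.8 and 53.1 CPM in the negative libraries, and it made up most of the list's sum. It did not pass without number 2 or 3. Runx2 and Cox6a2 had values of -0.77 and -0.58 and Ccr9 of 0.14, with no call. Among the markers that were not tested, Siglech had 2 counts in the positive and 8 in the negative libraries, and Spib had 0 and 10. Of 8 T and NK cell markers 1 was tested and not called, and of 6 B cell markers 2 were tested and Ebf1 fell. Of the 8 macrophage markers, Mertk rose (not without number 2) and none fell. The part of these cells in the differences of Oas2, Oasl2, Adar and the genes that fell was not tested.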

How the data were processed

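Polyadenylated RNA was sequenced with a stranded kit from 220 ng of total RNA per sample, per the labels' protocols. The deposited table holds raw counts per gene made by the authors, with gene lengths. STAR and mm10 are named in the submitters' processing notes. The sources used here do not give the counting tool, annotation or strand setting. Each column's name was matched to the description of one sample, and the titles gave the groups. No library repeated another (chi-square per degree of freedom 54.0 to 759).

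Low genes were removed by filterByExpr (count of 10, total of 15), and the rest were scaled by TMM (factors 0.865 to 1.15) and tested together by edgeR 4.0.16's quasi-likelihood test, group as the only term. Same-numbered libraries deviated together (correlations 0.60, 0.25, 0.58 and 0.56 for numbers 1 to 4, from the shared numbers in the titles). Libraries of different numbers correlated at -0.40 to 0.24. The highest of these, tdT-positive replicate 2 with negative replicate 4, about equals the value of number 2, so the pairing of number 2 is not clear. The blocked fit is printed where it changes a call. It changed the call of Oas2, Oasl2 and Adar in the set and of the pathway and marker genes reported as changed, except the monocyte marker Plac8, which was called lower in both fits. The labels do not say whether replicates came from separate animals, so the p-values reflect only how these libraries vary, which may be technical. Standard errors and 95% intervals come from the quasi-likelihood F statistic. Those printed for single genes are from the blocked fit unless stated otherwise. The members and gene lists were chosen with earlier results of these data known. Members passing in either fit, the most and least abundant per length and a fixed group of members are given in every library; of other pathway genes, up to 4 per list with the smallest p. Alternatives used DESeq2 1.42.0 and limma 3.58.1, and the fits were tested on simulated data. Shared transcript sequence (stretches of 50 bases) and exon overlap were computed from GENCODE M21. The list of receptor and JAK-STAT genes is not reported here as a whole.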

Additional observations from a re-analysis of the deposited data

Results flagged for a closer look

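In 88 groups of 4 libraries (44 genes in each tdT group), a library stood far from the other 3 in 2; chance alone marks about 1 in 20 such groups. Ifnb1 reached 0.602 CPM in tdT-positive replicate 2, a value that rests on 35 counts, against 0.345 CPM in the next highest positive library. Isg20, a ribonuclease gene, reached 225 CPM in tdT-positive replicate 1, against 121 CPM in the next highest, and its tdT-negative library of the same number was also the highest of its group, at 213 CPM.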

How the results depend on the processing

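Without the replicate block, no gene of the set was called under any alternative run: other scalings, DESeq2's Wald test, limma voom, filters, thresholds or leaving out a library. Its median log2 fold change moved by less than the spread between libraries in every setting (-0.17 to 0.20, at the extremes without tdT-positive or tdT-negative replicate 1). Over all genes, 1 was higher and 2 lower; the replicate block gave 1013 and 985, the DESeq2 Wald test 327 and 594, no filter 32 and 184, and a threshold of 0.1 gave 154 and 370. Library totals, the stricter filter and a threshold of 0.01 each gave 1 lower gene. Leaving out a library gave 1 to 62 higher and 1 to 394 lower genes, the most without tdT-negative replicate 1 (62 and 394) and tdT-negative replicate 4 (36 and 189). In the set, the block gave 3 higher and 0 lower genes. Leaving out both libraries of number 1, 2, 3 or 4 from the blocked fit gave 1, 0, 1 and 3 higher and 0, 0, 0 and 1 lower genes of the set, and 419, 94, 229 and 1231 higher and 604, 253, 126 and 1304 lower genes in all. The block with library totals gave 1 higher gene of the set, and 422 higher and 996 lower in all, so that 29.8% of calls were higher against 50.7%. With DESeq2 size factors it gave 3, 983 and 1007. Without the counts of Rn45s and Lars2, chosen after seeing the data, it gave 3, 1016 and 989. Genes that differ between numbers were 31 to 38 of 44 under other scalings and limma voom, and 6 to 37 with a number left out, the fewest without number 1, where 2 fewer libraries were fitted. Where a call changed with a setting, the cause was not tested. Ifnb1 had 13 to 35 counts per library, and every other gene of the set at least 1992.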
